A study of Mus musculus with 15 samples.

Results

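Chromosome 3 of the mouse was followed in 8 liver tissues by array comparative genomic hybridization, in which tissue DNA and normal liver DNA carry different dyes and compete for the same spots. Its members were all non-control probes placed on chromosome 3 by the array design, taken in order of position. These were 2172 of the 42404 non-control probes, and 5.33% of the 40726 autosomal ones. They ran from position 3460322 to 159598032, were 45 to 60 bases long and lay a median of 23.9 kb apart, with a largest gap of 3527 kb. The array files name no genome build, and all positions below are those of the files. Of the 2172 probes, 1830 carried 1 of 1074 gene names and 342 carried none.

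The tissues came from 3 mice of a mixed background of C57BL/6 and 129 with both alleles of Mad2l1 (labelled Mad2) floxed, at least 1 floxed Trp53 (labelled p53) allele, and Cre driven by the albumin promoter. Mad2l1 encodes a spindle assembly checkpoint protein and Trp53 the p53 tumor suppressor. HCC 1, HCC 2 and unaffected liver 1 were from the female mouse 3151, aged 16.4 months, with genotype Mad2(f/f) p53(f/+). HCC 3 and unaffected liver 2 were from the male mouse 3760, aged 13.8 months, and HCC 4, HCC 5 and unaffected liver 3 from the male mouse 4033, aged 13.9 months, both Mad2(f/f) p53(f/f). The 5 hepatocellular carcinomas (HCC) were compared with the 3 unaffected livers, and all 8 tissues carried the floxed alleles and Cre. Every tissue was set against normal liver DNA of the other sex. All tissues had 1 forward and 1 dye-swap array except HCC 3, which had the forward array alone, so that 15 arrays were used. Albumin-driven Cre acts in hepatocytes and not in the vessels, stroma or blood cells of the liver, and resected tumors hold some of these cells too.

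The spindle assembly checkpoint holds cells in mitosis until every chromosome is attached to the spindle, and without it daughter cells can receive too many or too few copies of a whole chromosome. A log2 ratio of tissue over reference near 0 stands for the same average dose as the reference, and a ratio below or above 0 for a lower or higher average dose. Mouse chromosome 3 is acrocentric, with its centromere next to the first probes. It carries genes of the cell cycle, several oncogenes and growth inhibitors, and many genes of liver metabolism, among them the fibrinogen chains and the alcohol dehydrogenases.

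On chromosome 3, spots were 3.18 to 6.68 times (green) and 3.61 to 7.18 times (red) as bright as their local background in the median of each array. The share of spots dim in at least 1 channel, that is, below the scanner software's mark for a clear signal, was 0.274% to 3.97%. The X chromosome lay above 0 in the 3 tissues of the female mouse (0.30 to 0.88) and below 0 in the 5 tissues of the male mice (-1.30 to -0.68), the direction that the sexes on the labels give. The single Mad2l1 probe, on chromosome 6 at 66489958 to 66490017, read -1.22, -0.71, 0.08, 0.53 and 0.59 in HCC 1 to HCC 5 and 0.01, 0.36 and 0.69 in unaffected livers 1 to 3. The single Trp53 probe, on chromosome 11 at 69397121 to 69397180, read -1.06, -1.14, -0.19, -2.07 and -2.03 in HCC 1 to HCC 5 and -0.07, -0.88 and -0.72 in the livers. The study describes array probes inside and beside the deleted fragments of both genes but identifies none of them, so it could not be told which kind these are, and they check no label.

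The sequences of 6 chromosome 3 probes are given because the results below turn on them. The first pair flanks a step in dose in HCC 4. The next 3 were among the 5 probes with the largest SD over the tissues, and the last read lower in both tumors of mouse 4033 than in the liver of that mouse. They are written 5′ to 3′ with G and C in capitals, since the content of G and C sets how firmly a probe binds. Probes with no gene name are shown whole, and those with a gene name by their first 30 bases.
Unnamed probe at chr3:97348325-97348384: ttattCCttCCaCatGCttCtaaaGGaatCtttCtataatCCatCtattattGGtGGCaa
Chd1l probe at chr3:97402419-97402478: taCaCtttGCCtataaaaGCaCattttGaC
AK206798 probe at chr3:94515927-94515986: aaGaaCtaCCattCttaCaGatGGtttGGC
Palmd probe at chr3:116667721-116667780: tataaaCCtttCCGCttaaatGCataaGaC
AK004863 probe at chr3:138050946-138051005: GGGaaCaaaaGaataaaGaaaCaaGaattG
Unnamed probe at chr3:37026796-37026855: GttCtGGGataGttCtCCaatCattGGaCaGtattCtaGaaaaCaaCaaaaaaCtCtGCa
All 6 were 60 bases long. G and C made up 33.3%, 33.3%, 33.3%, 35.0%, 35.0% and 36.7% of them in this order, near the median of 36.7% over all chromosome 3 probes.

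The average level of chromosome 3 was below the reference in HCC 1, HCC 3, HCC 4 and HCC 5. Its level, the mean log2 ratio of the 2172 probes, was -0.35, 0.07, -0.24, -0.37 and -0.36 for HCC 1 to HCC 5. The levels of unaffected livers 1, 2 and 3 were -0.03, 0.0046 and 0.01. HCC 2 thus lay above all 3 livers and the other 4 tumors below them, so that the groups overlapped. Chromosome 3 was the lowest of the 19 autosomes in HCC 1, the third lowest in HCC 4, the fourth lowest in HCC 3 and HCC 5, and ranked 10 from the lowest in HCC 2.

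**Figure D1:**
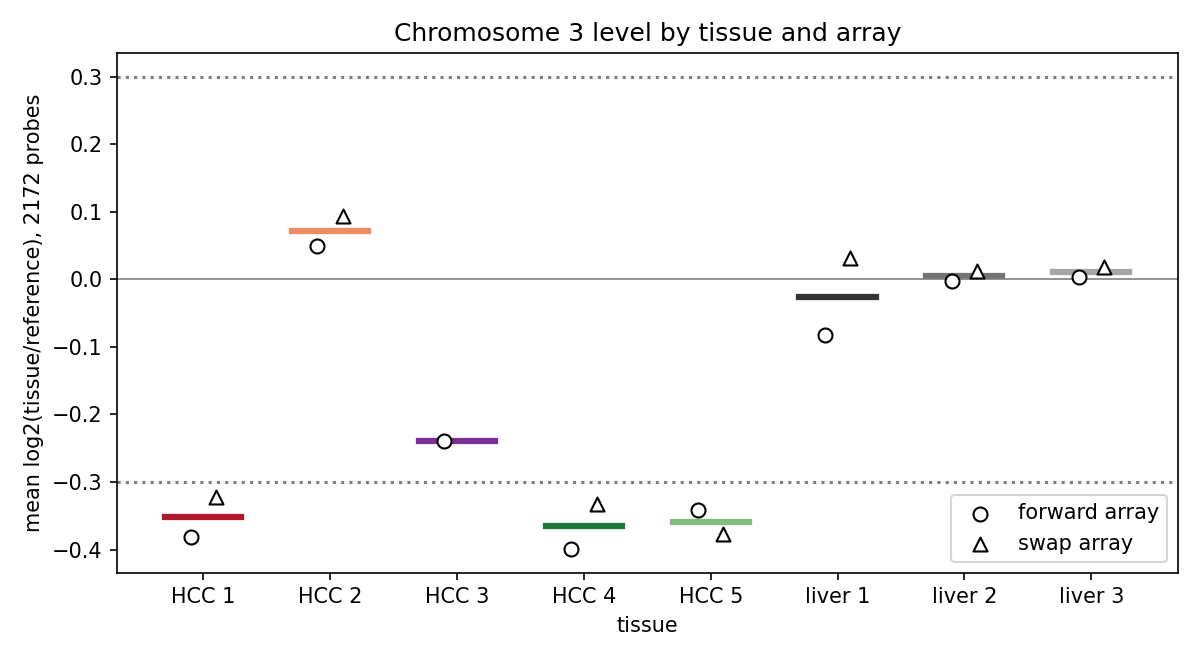
Chromosome 3 level (mean log2 ratio of tissue over reference, 2172 probes) in each of the 8 tissues: bars are tissue levels, circles forward arrays and triangles dye-swap arrays, with dotted lines at 0.3 and -0.3. HCC 1, HCC 4 and HCC 5 lie below -0.3 on every array, HCC 3 has 1 array at -0.24, and HCC 2 lies above 0 on both.

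The low level was shared by most probes of these tumors. Of the 2172 probes, 96.7%, 28.7%, 87.4%, 94.6% and 98.3% lay below 0 in HCC 1 to HCC 5. In unaffected livers 1 to 3 the shares were 48.5%, 43.3% and 46.7%. On the other autosomes 45.7% to 52.4% of probes lay below 0 in the 8 tissues. The lower and upper quartiles of the chromosome 3 probes were -0.46 and -0.22 (HCC 1), -0.37 and -0.10 (HCC 3), -0.50 and -0.21 (HCC 4) and -0.43 and -0.28 (HCC 5). For HCC 2 they were -0.02 and 0.19. The forward and dye-swap arrays of a tissue differed in level by 0.0151 to 0.114. All levels are relative to the median of the autosomes of the array. Setting 0 at the most frequent value instead shifted the autosomal median by -0.25 in HCC 5 and by -0.11 in HCC 1. In the other 6 tissues it shifted by less than 0.1, the most being 0.0953 in HCC 2. The chromosome 3 level then read -0.61 in HCC 5, -0.46 in HCC 1 and 0.17 in HCC 2.

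Each tumor was next set against the unaffected liver of its own mouse. The difference in level was -0.33, 0.10, -0.24, -0.38 and -0.37 for HCC 1 to HCC 5. Of the probes, 90.2%, 31.5%, 85.2%, 95.1% and 98.8% read lower in the tumor than in that liver. HCC 1 and HCC 2, resected from the same mouse, thus lay on opposite sides of their shared liver, and HCC 4 and HCC 5 on the same side of theirs. The X chromosome gave a scale of size, since 1 and 2 copies were compared there: its log2 ratio in the livers had a mean size of 0.889 (n = 3). On that scale the chromosome 3 level stood at -39.6%, 8.02%, -27.0%, -41.2% and -40.4% for HCC 1 to HCC 5. In DNA from a whole piece of tissue, a change in some of the cells and a smaller change in all of them cannot be told apart.

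As groups, the 5 HCC averaged -0.25 ± 0.19 (SD, n = 5) and the 3 livers -0.0035 ± 0.0194 (SD, n = 3). The difference of -0.25 (SE 0.12) did not pass the test among the 19 autosomes, where 5.26% were called (limma adjusted p = 0.305). The exact two-sided permutation test over the 56 splits of the tissues gave p = 0.143, where the smallest p the design allows is 0.0179. With HCC 2 left out, a choice that follows the outcome, the difference was -0.33 (limma adjusted p = 0.0164). Within slides, HCC minus unaffected liver was -0.24 on slide 1, -0.37 on slide 2 and -0.34 on slide 3, each with 1 tumor and 1 liver, and slide 4 held tumors alone. Tumor and liver were of the same mouse on slides 1 and 2. Slide 3 held HCC 4 of mouse 4033 and unaffected liver 1 of mouse 3151. Within scan days it was -0.31 on day 1 (2 tumors, 2 livers) and -0.19 on day 2 (3 tumors, 1 liver).

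The same pattern held in each of 16 windows of 10 Mb, which held 46 to 288 probes. All 16 windows lay below 0 for HCC 1 (-0.42 to -0.27), HCC 3 (-0.28 to -0.19), HCC 4 (-0.48 to -0.28) and HCC 5 (-0.42 to -0.26), and all 16 above 0 in HCC 2 (0.0009 to 0.128). Liver windows stayed between -0.09 and 0.05. Windows below -0.3 numbered 14 (HCC 1), 0 (HCC 3), 13 (HCC 4) and 15 (HCC 5) of 16. HCC minus liver ran from -0.27 in the window from 130 to 140 Mb to -0.21 in that from 70 to 80 Mb. No chromosome 3 window was called by limma, with adjusted p from 0.444 to 0.478, against 3.92% of the 255 autosomal windows. At an unadjusted p under 0.05, 6 of the 16 were lower in HCC, against 2.35% of all windows, and these 6 were all such windows in the genome. Neighboring windows share the level of their chromosome and are not independent.

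**Figure D2:**
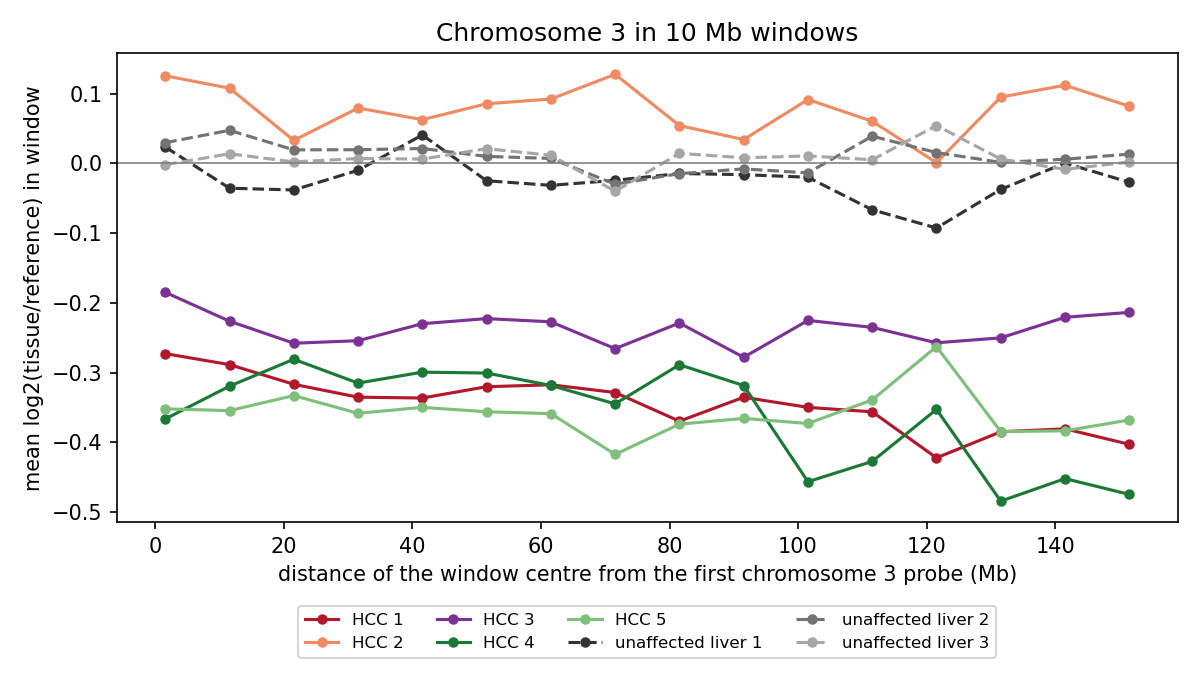
Mean log2 ratio in 10 Mb windows of chromosome 3 against the distance of the window centre from the first probe (Mb), with solid lines for the 5 HCC and dashed lines for the 3 unaffected livers. HCC 1, HCC 3, HCC 4 and HCC 5 run below the livers throughout, HCC 4 goes from -0.32 to -0.46 between the 2 windows on either side of 100 Mb in the files' positions, and HCC 2 lies between 0.0009 and 0.128.

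The windows were more alike in some tumors than in others. The SD of the 16 windows was 0.040, 0.0351, 0.0231, 0.0716 and 0.0323 for HCC 1 to HCC 5. In unaffected livers 1, 2 and 3 it was 0.0311, 0.0202 and 0.0186, so that HCC 3 lay inside the range of the livers. The group means of 0.0404 ± 0.0185 (SD, n = 5) and 0.0233 ± 0.0068 (SD, n = 3) differed by 0.0171 (exact two-sided permutation p = 0.161). HCC 4 had the most uneven chromosome 3.

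HCC 4 had a lower dose in the distal part of chromosome 3 than in the proximal part. A division of chromosome 3 into stretches of equal level was run on the difference between HCC 4 and unaffected liver 3. It placed 1 step between the probes shown above, at 97348384 and 97402419, an interval of 54035 bases. The 1211 proximal probes had a mean difference of -0.31 and the 961 distal probes one of -0.46, a difference of -0.15 between the parts. Cut at the same place, distal minus proximal after subtraction of the own liver was -0.02 (HCC 1), 0.03 (HCC 2), 0.01 (HCC 3) and 0.01 (HCC 5). Against the reference the step in HCC 4 was -0.12 on the forward and -0.16 on the dye-swap array, and in the 3 livers the same quantity was between -0.02 and 0.01. The place of the step was chosen on HCC 4, so these values are a description and carry no test.

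**Figure D3:**
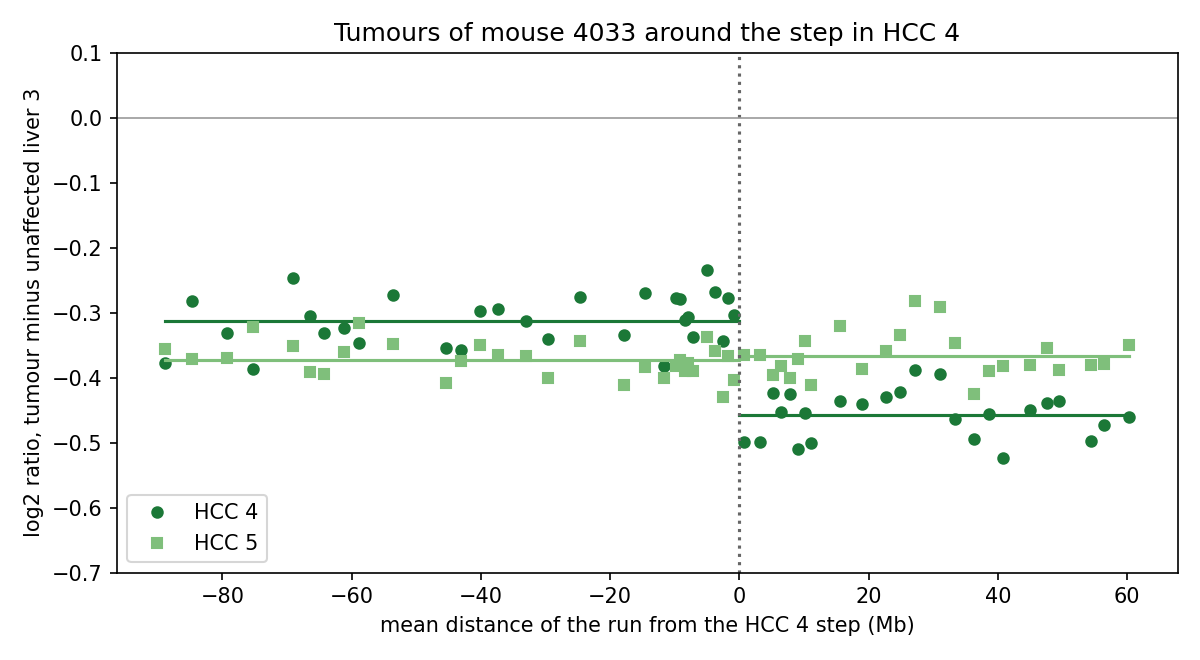
Log2 ratio of HCC 4 (circles) and HCC 5 (squares) minus unaffected liver 3 of the same mouse, in runs of up to 40 probes, against the mean distance of the run from the HCC 4 step (Mb), with lines at the proximal and distal means. HCC 4 runs lie between -0.39 and -0.23 before the step and between -0.52 and -0.39 after it, while HCC 5 has means of -0.37 on both sides.

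The last probes before the step carried Olfr1402, an olfactory receptor gene, and no name, and the first after it Chd1l, a chromatin remodeler of DNA repair, then Fmo5, a flavin monooxygenase, and Prkab2, a subunit of the AMP-activated kinase. Before the step the runs of 40 probes in HCC 4 lay between -0.39 and -0.23 (30 runs), and after it between -0.52 and -0.39 (24 runs). In HCC 5 they lay between -0.43 and -0.32 before and between -0.43 and -0.28 after it. The same step was found under 9 of 10 ways of treating the signals, and with forward arrays alone it lay between 97408692 and 97439566. Its size ranged from -0.15 to -0.13. Set against the reference, HCC 4 had the step 1 probe further on, between 97402478 and 97408633, and also had a stretch of 44 probes at -0.18, from 124026133 to 127653938, between stretches of -0.45 and -0.46. That stretch was not separate once the liver of the mouse was subtracted.

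HCC 5 had a single interval of higher dose than the rest of its chromosome 3. Against unaffected liver 3, the 69 probes from 122579022 to 127653938 had a mean of -0.25, and the rest of the chromosome one of -0.37, a difference of 0.12. The interval was chosen on HCC 5, so its values here and in the other tumors are a description and carry no test. The same difference was between -0.03 and -0.02 in the other 4 tumors. The interval held 32 gene names, among them Fabp2, an intestinal fatty acid binding protein, Sec24d, a coat protein of vesicles leaving the endoplasmic reticulum, Camk2d, a calcium-dependent kinase, and Ank2, an ankyrin. Its last 20 probes fall in a region that varied between the mice, described below, and without them the difference was 0.10 in HCC 5 over 49 probes, and -0.08 to 0.0003 in the other tumors. It was not set apart as a stretch of its own with normexp background correction (0.10), with dim spots left out (0.10) or with forward arrays alone (0.08). HCC 1, HCC 2 and HCC 3 each formed a single stretch from the first to the last probe after subtraction of their livers.

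Short regions that stood at least 0.3 from the chromosome's median were found in tumors and livers alike. Against the reference they numbered 2, 4, 1, 0 and 5 for HCC 1 to HCC 5, and 3, 2 and 4 in unaffected livers 1 to 3, in all 21 at 7 places that held 55 probes. After subtraction of the own liver none was marked in any of the 5 tumors. The penalty was then set from the noise of the difference, so a short region can go unmarked there. Tumor and liver need not match in size: from 138044843 to 138107052 the mean of the 5 probes stood -0.62 from the chromosome's median in HCC 5 and -0.305 in unaffected liver 3. Regional means could rest on single probes. At the place from 94427950 to 94651790, for example, the mean of the 8 probes stood -0.48 from the chromosome's median in HCC 1, while their median stood at -0.07. The values below are log2 ratios relative to the tissue's chromosome 3 median.

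The AK206798 probe was far below the reference in mice 3151 and 3760. It read -3.65 and -4.01 in HCC 1 and HCC 2 and -3.99 in the liver of mouse 3151, and -4.17 in HCC 3 and -3.10 in the liver of mouse 3760. In mouse 4033 it read -1.58 in HCC 4 and -1.47 in HCC 5 but -0.07 in unaffected liver 3. Tumor minus own liver was thus -1.51 and -1.40 for HCC 4 and HCC 5, and -1.06 for HCC 3. The last value sets the forward array of HCC 3 against the mean of both arrays of unaffected liver 2. That liver read -3.44 on the forward and -2.76 on the dye-swap array, so the value holds a difference between orientations too. On single arrays of mouse 4033, HCC 4 read -1.24 and -1.92, HCC 5 read -1.64 and -1.31, and the liver read -0.02 and -0.12. Both channels were well above background on 6 of 6 arrays of mouse 4033, but on 1 of 6 of mouse 3151 and 1 of 3 of mouse 3760, where the values rest on dim signal. The other AK206798 probe, at 94490492, stayed between -0.18 and 0.19 in the 8 tissues.

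**Figure D4:**
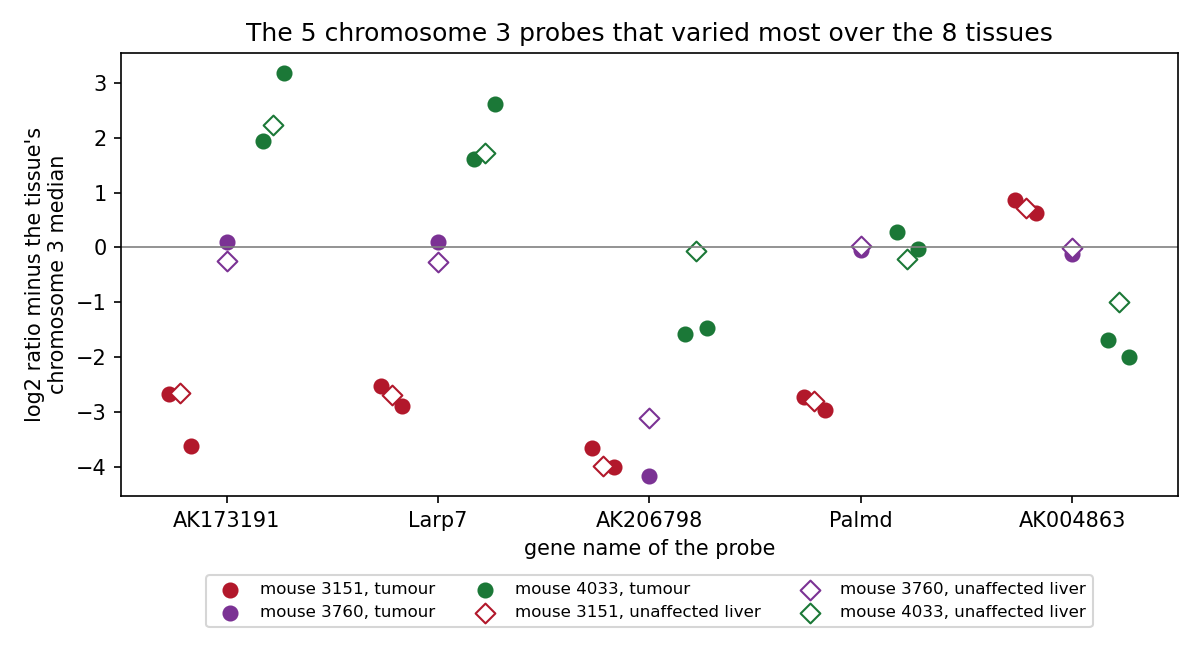
The 5 chromosome 3 probes with the largest SD over the 8 tissues, as log2 ratio minus the tissue's chromosome 3 median, with filled circles for HCC, open diamonds for unaffected livers and a color for each mouse. At Palmd the 3 tissues of mouse 3151 lie between -2.96 and -2.73 and the other 5 between -0.21 and 0.29, and at AK206798 HCC 4 (-1.58) and HCC 5 (-1.47) lie apart from unaffected liver 3 (-0.07) of the same mouse.

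The Palmd probe set the tissues of mouse 3151 apart from the others. Mouse 3151 was also the only female and the only p53(f/+) mouse, so only its tissues had male reference DNA. Here and at the probes below, the mouse, its sex, its genotype and its reference cannot be told apart. Palmd encodes palmdelphin, a membrane-associated protein. The probe read -2.73 and -2.96 in HCC 1 and HCC 2 and -2.80 in their liver, and between -0.21 and 0.29 in the 5 tissues of mouse 3760 and mouse 4033. The other Palmd probe, at 116637176, read -0.15 to -0.02 in all 8.

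At AK004863, next to the alcohol dehydrogenase genes, mouse 3151 read highest and mouse 4033 lowest. The AK004863 probe read 0.86 and 0.63 in HCC 1 and HCC 2 and 0.72 in unaffected liver 1, -0.12 in HCC 3 and -0.0029 in unaffected liver 2, and -1.69, -1.99 and -0.99 in HCC 4, HCC 5 and unaffected liver 3. Both channels were well above background on all 15 arrays, and tumor minus own liver was -0.70 for HCC 4 and -1.0025 for HCC 5. Its second probe, at 138044843, kept the order of the mice at 0.18 to 0.56, -0.23 to -0.06 and -0.78 to -0.54, whereas both probes of Adh4 and the first of Adh5, genes of alcohol dehydrogenases, stayed between -0.19 and 0.05 at 138081320 to 138107052. The second Adh5 probe, at 138114306, had the lowest values in mouse 3151, at -0.84 to -0.77, and read -0.61 to -0.51 in mouse 3760 and -0.04 to 0.12 in mouse 4033. The Rg9mtd2 probe at 137811302 read 0.62 to 1.23 in mice 3760 and 4033 and -0.25 to -0.19 in mouse 3151. At the other Rg9mtd2 probe, at 137816631, the mice overlapped, with 0.02 to 0.27 in mice 3760 and 4033 and -0.18 to 0.08 in mouse 3151. Rg9mtd2, now named Trmt10a, encodes a tRNA methyltransferase.

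Mouse 3151 also stood apart at 1 of the 2 probes of Msh4, a gene of meiotic recombination. That probe, at 153520277, read -0.62, -0.97 and -0.89 in HCC 1, HCC 2 and the liver of mouse 3151. In HCC 3, unaffected liver 2, HCC 4, HCC 5 and unaffected liver 3 it read 0.61, 0.42, 0.25, 1.03 and 1.03. In the region from Larp7 to Tifa, the Larp7 probe at 127241724 differed between the mice. It read -2.89 to -2.53 in mouse 3151, -0.27 to 0.10 in mouse 3760 and 1.62 to 2.61 in mouse 4033. Both channels were well above background on 1 of 6, 2 of 3 and 5 of 6 arrays in this order. The other Larp7 probe, at 127254973, read -0.02 to 0.38 in all 8 tissues. The Tifa probe at 127498996 kept the order of the mice, at -0.55 to -0.20, 0.13 to 0.28 and 0.30 to 0.62. Medians of the 20 probes from 126695499 to 127653938 were -0.25 to -0.13 in mouse 3151. They were 0.02 to 0.08 in mouse 3760 and 0.07 to 0.13 in mouse 4033, so these mice overlapped. Both unnamed probes at 78306474 and 78814773, before Rapgef2, instead read below 0 in all 8 tissues, at -1.70 to -0.64 and -1.02 to -0.12. Rapgef2 encodes an exchange factor for the small GTPase Rap1, and its own 2 probes lay between -0.33 and 0.19.

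Over all 2172 probes the SD over the 8 tissues had a median of 0.139, and 17 probes exceeded 0.5. The 5 largest belonged to AK173191 (2.56), Larp7 (2.20), AK206798 (1.52), Palmd (1.477) and AK004863 (1.11). Both channels were well above background on 2, 8, 8, 11 and 15 of the 15 arrays in this order, so the size of the first values, high ones included, and their order rest on dim signal. Relative to the chromosome's median, probe values of tissues from the same mouse correlated at r = 0.245 to 0.516 (7 pairs), and those from different mice at -0.225 to 0.378 (21 pairs). Without the 55 probes of the 7 places the ranges were 0.0212 to 0.288 and -0.207 to 0.322. These are correlations across probes within pairs of tissues, and tissues of a mouse also shared the sex of their reference.

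By gene, HCC lay below unaffected liver at 1058 of 1074 chromosome 3 gene names, with a median difference of -0.25. Over all 19973 autosomal names 10258 were lower and the median was -0.0079. No gene was called on chromosome 3 or elsewhere, 0% of 19973 (limma, smallest adjusted p on chromosome 3 of 0.190). At an unadjusted p under 0.05, 190 of the 1074 were lower in HCC and none higher, against 2.37% lower of all autosomal names. By probe, 2111 of 2172 were lower, 0% of the 40726 autosomal probes were called, and 325 were lower at an unadjusted p under 0.05, against 2.06% of all. Genes and probes share the level of the chromosome, and the listed genes below had 1 to 4 probes each. Over all chromosome 3 names 98.5% were lower in HCC, and 17.7% were lower at an unadjusted p under 0.05 (limma). The counts of the lists below are to be read beside these shares.

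**Figure D5:**
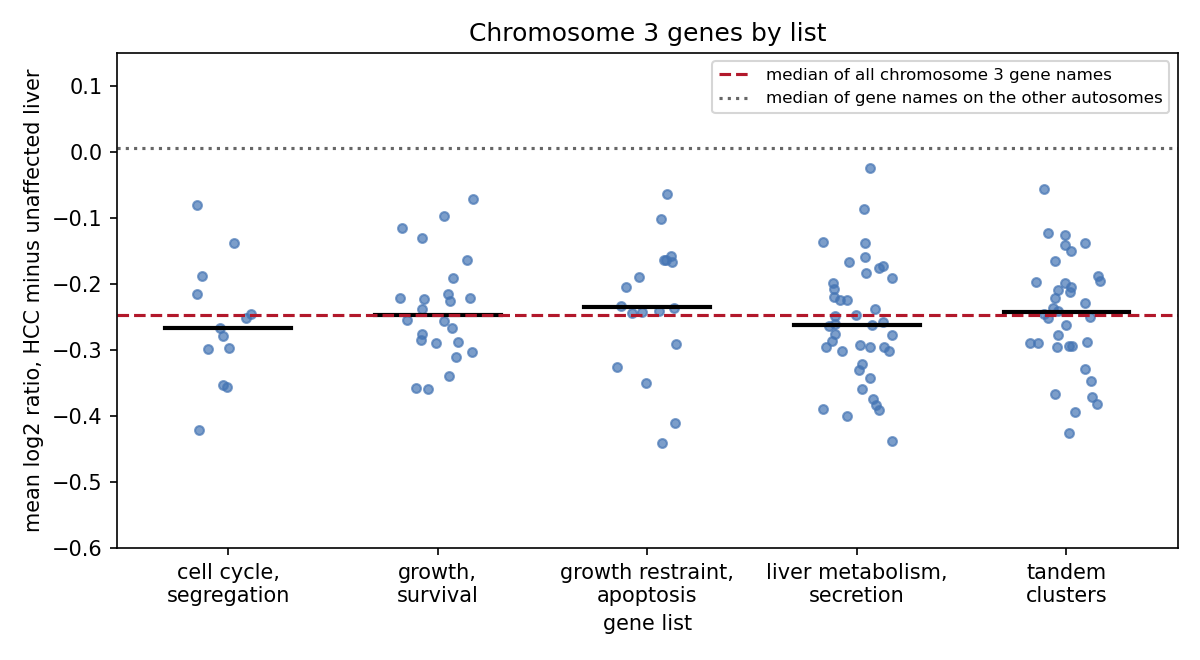
Mean log2 ratio of HCC minus unaffected liver for the chromosome 3 genes of 5 lists: each point is a gene, black bars are list medians, the dashed line is the median of all chromosome 3 names (-0.25) and the dotted line that of names on the other autosomes (0.0059). The 5 list medians lie between -0.27 and -0.23.

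Genes of the cell cycle and of chromosome segregation read lower in HCC like the rest of the chromosome. All 13 of 17 listed genes that the array held lay lower in HCC, with a median of -0.27, 3 of them at an unadjusted p under 0.05 and none called. Plk4, the kinase that starts centriole duplication, read -0.21, 0.20, -0.46, -0.34 and -0.30 in HCC 1 to HCC 5 and 0.14, 0.08 and 0.01 in the livers. HCC 2 lay above the 3 livers there and the other tumors below them. Cenpe, the kinetochore motor that brings chromosomes to the spindle equator, read -0.26, 0.08, -0.31, -0.46 and -0.40 in the tumors and -0.05, 0.04 and -0.06 in the livers. The difference was -0.35 for Cdc14a, a mitotic exit phosphatase, -0.25 for E2f5, an E2F transcription factor, and -0.27 for Iqgap3, a scaffold of the small GTPases. Gpsm2, which orients the spindle, had the largest difference of the list at -0.42 (SE 0.15, limma adjusted p = 0.425). Ccna2, the gene of cyclin A2, had no probe of that name.

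Oncogenes and growth factors gave the same picture. Of 28 listed growth and survival genes 24 were measured, all 24 lower in HCC with a median of -0.25, 5 at an unadjusted p under 0.05 and none called. Nras, a RAS GTPase, read -0.47, 0.15, -0.27, -0.31 and -0.30 in HCC 1 to HCC 5 and 0.21, 0.09 and 0.0006 in the livers, so that only HCC 2 overlapped with them. Pik3ca, the catalytic subunit of phosphoinositide 3-kinase, read -0.54, 0.13, -0.19, -0.10 and -0.36 against -0.39, -0.03 and 0.08. Only HCC 1 lay below all 3 livers there, since liver 1 was low. Lef1, a transcription factor of Wnt signaling, and Egf, epidermal growth factor, differed by -0.28 and -0.22. The differences were -0.29 for Pdgfc, a platelet-derived growth factor, -0.24 for Efna1, an ephrin, and -0.19 for Rap1a, a RAS-related GTPase. Tbl1xr1, a subunit of a corepressor complex, differed by -0.36 (SE 0.12, limma adjusted p = 0.383), and read -0.36 in HCC 2 as well, so that all 5 tumors lay below the 3 livers.

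Genes that restrain growth or promote cell death read lower in HCC too. All 18 of 20 listed genes on the array lay lower in HCC, with a median of -0.23, 3 at an unadjusted p under 0.05 and none called. Fbxw7, a ubiquitin ligase subunit that marks cyclin E and MYC for degradation, read -0.24, 0.02, -0.17, -0.31 and -0.28 in HCC 1 to HCC 5 and -0.11, 0.0018 and -0.0003 in the livers. Tet2, an enzyme that oxidizes methylated cytosine, differed by -0.16 and read -0.09 in HCC 1 against -0.43 in HCC 4. The differences were -0.24 for Hipk1, a kinase that acts on p53, -0.10 for Spry1, an inhibitor of receptor tyrosine kinase signaling, and -0.16 for Trim33, a ubiquitin ligase of the SMAD pathway. Pias3, an inhibitor of STAT3, had the largest difference of the list, -0.44 (SE 0.14, limma adjusted p = 0.307).

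Liver genes were measured at 41 of 45 listed names, and all 41 lay lower in HCC with a median of -0.26, 9 at an unadjusted p under 0.05 and none called. Of the 3 fibrinogen chains, Fgb read -0.52, -0.04, -0.53, -0.06 and -0.36 in HCC 1 to HCC 5 and -0.04, -0.03 and 0.12 in the livers. Fgg read -0.29, 0.19, -0.48, -0.21 and -0.35 against 0.10, -0.25 and -0.04. Fga read -0.03, 0.31, -0.09, 0.16 and -0.11 against 0.27, 0.47 and 0.08, so that HCC 2 and HCC 4 lay inside the range of the livers. The 3 neighboring genes had 1 probe each. The difference was -0.24 for Mttp, which loads lipid onto lipoproteins, -0.22 for Cp, the copper carrier ceruloplasmin, and -0.29 for Cyp7b1, an oxysterol hydroxylase of bile acid synthesis. It was -0.30 for Gstm3, a glutathione transferase, and -0.39 for Abcd3, a peroxisomal transporter. Hadh, an enzyme of fatty acid oxidation, had the largest difference of the list, -0.44 (limma adjusted p = 0.390).

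The tandem gene clusters were the last list, with 36 of 47 names measured, all 36 lower in HCC with a median of -0.24, 6 at an unadjusted p under 0.05 and none called. Members of such clusters resemble each other, and a probe can bind DNA of a neighbor. Clca3, a chloride channel regulator, read -0.40, 0.01, -0.31, -0.45 and -0.39 in HCC 1 to HCC 5 and -0.06, 0.02 and -0.01 in the livers. S100a9, a calcium-binding protein, and the carbonic anhydrases Car1 and Car2 differed by -0.20, -0.12 and -0.29. Car1, with 2 probes, read 0.10 in HCC 1, where the chromosome's level was -0.35. The medians of the 5 lists by tissue were -0.37 to -0.33 (HCC 1), 0.05 to 0.10 (HCC 2), -0.30 to -0.20 (HCC 3), -0.42 to -0.33 (HCC 4) and -0.38 to -0.34 (HCC 5).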

How the data were processed

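Genomic DNA of 5 HCC and 3 unaffected livers was measured on 15 two-color Agilent arrays of 44K design. The deposited red and green signals are intensity values that the authors' scanner software, Feature Extraction 9.1.3.1, subtracted for background, detrended and dye-normalized within each array. The deposited log10 ratios of the scanner files and of the value table were equal at every non-control spot within 0.0001 once the sign was turned on dye swaps. Columns of the value table with no sample numbered 0. The log2 ratio of tissue over reference was taken from the processed signals, with outlier spots left out, spots of a probe averaged, each array centered on its autosomal median, and forward and swap arrays averaged, so that a tissue counted once. No absolute depth applies to arrays, and their number limits the precision.

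Levels of 19 autosomes, 10 Mb windows with at least 10 probes, probes and gene names (mean of their probes) were tested with limma 3.58.1 in R 4.3.3 across all autosomal features, HCC against unaffected liver, with Benjamini-Hochberg adjustment and 0.05 as threshold. The methods' test on chromosome means was replaced by limma and exact permutation tests. Tissues of a mouse are the same animal, so a mouse block was run as an alternative. Chromosome 3 probe values relative to the tissue median correlated at r = 0.245 to 0.516 within mice and -0.225 to 0.378 between mice. Without the 55 probes of the short regions the ranges overlapped more, at 0.0212 to 0.288 and -0.207 to 0.322. The groups hold several tissues of 1 mouse, and p-values measure the spread between these tissues. Stretches of equal level were found by optimal partitioning with a penalty factor of 3 and at least 5 probes. A region is a stretch of fewer probes than the rest of the chromosome, at least 0.3 from the tissue's chromosome 3 median. Scripts were tested on simulated data.

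Named genes were, from each of 5 lists, the 4 with most probes, any called gene, and Pik3ca, Nras, Fbxw7, Ccna2, Plk4, Cenpe, Lef1, Egf, Fga, Fgb, Fgg and Mttp, then genes of the regions and the 5 probes with the largest SD. Gpsm2, Pias3 and Hadh (largest difference of their list), Fabp2, Sec24d, Camk2d, Olfr1402, Fmo5, Prkab2 and Ank2 were added after their values were seen. The members and lists were chosen with earlier results of these data known. Of the 1074 names, 655 were current RefSeq symbols, 112 older ones and 307 unmatched. Only 41 of 766 genes had their first probe inside the GRCm38.p6 span of that gene, so the files' positions are of another build and no reference coordinates were used.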

Additional observations from a re-analysis of the deposited data

Results flagged for a closer look

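Among the 5 HCC, 4 values stood far from the others by Dixon's criterion, out of 7 measures checked, and chance alone sets apart about 1 group in 20. HCC 2 stood apart in the chromosome 3 level, at 0.0713, where its gap to the next tumor was 0.711 of the range against a limit of 0.71. HCC 2 also stood apart in the share of chromosome 3 probes below 0, at 28.7%, and in the level minus its own liver, at 0.0970. These 3 are readings of the same shift. HCC 5 stood apart in the SD of its chromosome 3 probes, at 0.191, the smallest of the tumors, and its probe noise of 0.109 was also the smallest, where the other 4 had 0.172 to 0.203. The causes were not tested.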

How the results depend on the processing

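The lower chromosome 3 level in HCC kept its direction under all 22 alternatives, with differences from -0.33 to -0.21 and p (adjusted where from limma) from 0.0164 to 0.746, and 21 of them left it uncalled. Leaving out 1 tissue gave -0.33 to -0.22; it was called without HCC 2 (-0.33, limma adjusted p = 0.0164), and chromosome 3 windows called then ranged from 0 to 16, with all 16 called without HCC 2. With the mouse as a replicate block the level differed by -0.24 (limma adjusted p = 0.423), and pairing by mouse changed no other call. No chromosome 3 probe was called under 20 alternatives. With the slide as a block 1 gene name, AK004863, was called (-1.20, limma adjusted p = 0.0354), and 0 with the other alternatives. On slide 3 that fit sets HCC 4 of mouse 4033 against unaffected liver 1 of mouse 3151. The unaffected livers of these mice also differed at AK004863, whose probe at 138050946 read -0.99 in liver 3 and 0.72 in liver 1. The part of this difference between mice in the call was not tested. The unevenness difference ranged from 0.0094 to 0.0215 (exact p from 0.0857 to 0.333). Centering on the mode moved HCC 5 minus its liver to -0.62 and HCC 2 minus its liver to 0.20. The 21 short regions were 10 with forward arrays alone, 5 with normexp, 31 with a penalty factor of 2 and 30 with stretches of at least 3 probes. Chosen after seeing the data, leaving out the 55 probes of these places gave a level difference of -0.24 (exact permutation p = 0.143). The step in HCC 4 kept its direction under 9 alternatives, also chosen after seeing the data. Dim signal limits single probes with the lowest and the highest ratios.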

Other observations

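Single chromosome 3 probes at least 1 (log2) from the own liver, after both were set to their chromosome 3 median, numbered 18, 20, 9, 7 and 3 for HCC 1 to HCC 5. In HCC 1 and HCC 2, which shared unaffected liver 1, 17 and 16 of these were higher in the tumor, while 6, 6 and 3 were lower in HCC 3, HCC 4 and HCC 5. In mouse 4033, 2 probes were this far below the liver in both tumors. One was AK206798, and the other the unnamed probe at 37026796 to 37026855, at -1.10 in HCC 4 and -1.02 in HCC 5 and between -0.25 and 0.11 in the other 3 tumors. In mouse 3151, 1 of the 3 Tet2 probes, at 133184674, was higher than in the liver by 1.495 in HCC 1 and 1.36 in HCC 2, where unaffected liver 1 is the shared term.

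Of the 586 chromosome 3 gene names with at least 2 probes, 45, 38, 35, 56 and 12 stood at least 0.3 from the tissue's chromosome 3 median in HCC 1 to HCC 5, and 45, 7 and 7 in unaffected livers 1 to 3. Probe noise, the spread between neighboring probes, was 0.175, 0.172, 0.203, 0.186 and 0.109 in the tumors and 0.175, 0.0909 and 0.0835 in the livers. Its part in these counts was not tested.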
